A study of Mus musculus with 8 samples.

Results

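Matrix metalloproteinases (Mmp), the related Adamts and Adamts-like (Adamtsl) proteins and the tissue inhibitors of metalloproteinases (Timp) were followed across cell types of the mouse ascending thoracic aorta in old animals. The members were every gene of the deposited table with a symbol made of Mmp, Adamts or Adamtsl and a number, and Timp1 to Timp4. The rule used symbols and no measured value, but it was set with earlier results of these data known. The members came to 50 of 32285 genes, of which 22 were Mmp, 19 Adamts, 5 Adamtsl and 4 Timp genes. The cells came from 3 wildtype mice aged 81, 84 and 88 weeks. Their ascending thoracic aortas were digested with collagenase II and elastase, depleted of dead cells, marked with 1 hashtag antibody per animal and measured as 1 pool by droplet RNA sequencing. The 8 samples are 4 libraries of gene expression and 4 of hashtags from that pool, and the counts do not keep them apart. All 3 animals were aged, so the comparisons made here were between cell classes within the same 3 animals.

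Matrix metalloproteinases are zinc endopeptidases that cut collagens, gelatin, elastin and other proteins of the extracellular matrix. Most are secreted as inactive proenzymes, and the membrane-type members stay on the cell surface. Adamts proteins are secreted relatives with thrombospondin repeats: some cut the large proteoglycans aggrecan and versican, others trim procollagens or act on fibrillin microfibrils. The Adamtsl proteins share the repeats without the catalytic domain and bind to microfibrils. Timps bind the active site of these enzymes, and in the wall of the aorta their balance with the enzymes is known to bear on elastic fibre loss and aneurysm.

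The table held 142108011 UMIs (unique molecular identifiers, each counting 1 captured molecule) in 26916 barcodes, with a median of 2975 UMIs per barcode. After filtering, 10408 cells with at most 1 hashtag formed the pool for levels. Of these, 4175 carried exactly 1 hashtag, with 569, 2554 and 1052 from the animals of 81, 84 and 88 weeks, and these cells were summed per animal for the tests. Cell classes were rebuilt here from marker genes, so the study's own naming may place cells differently. They included 1025 endothelial-like, 1353 fibroblast-like and 4676 smooth muscle-like cells, next to 1860 T cell-like cells, with medians of 4086, 7607, 11198.5 and 3777.5 UMIs per cell. Levels are UMIs per 1000000 UMIs of a class (CPM), and each value compares 1 gene across classes, not genes with each other. All 10 markers of the fibroblast and smooth muscle lists were detected in their own class, where they summed to 39040 CPM and 44130 CPM. Exactly 1 hashtag was carried by 89.0% of endothelial-like, 16.3% of fibroblast-like and 9.77% of smooth muscle-like cells. The wall cells with a hashtag were therefore few, with 43, 129 and 48 fibroblast-like cells and 134, 157 and 166 smooth muscle-like cells in the 3 animals. Where 1 hashtag was called, its median signal in the fibroblast-like class was 1.46 times the cutoff of the call. The smooth muscle-like class had a median of 1.29 times, the T cell-like class 1.69 and the endothelial-like class 3.02. The animal given to a fibroblast-like or smooth muscle-like cell thus rested on a signal close to the cutoff. Errors in that assignment were not tested. Clusters that mixed T cell genes with those of another class held 649 cells and entered no class. They differed by animal and by hashtag. Set together with the class itself, they made up 14.7%, 63.6% and 29.96% of the hashtagged smooth muscle cells of the animals of 81, 84 and 88 weeks. Among smooth muscle cells without a hashtag, 74 were mixed beside 4219 of the class, a share of 1.72%. Mixing with T cell genes was thus more frequent among the hashtagged cells, from which the tests drew.

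The fibroblast-like class held the highest level of more members than any other class. Of the 50 members, 30 had at least 100 UMIs in the pool, 15 had fewer and 5 had none. Among the 30, the highest of the classes with at least 50 cells was the fibroblast-like one for 15 members and the endothelial-like one for 5. Smooth muscle-like, pericyte-like and mesothelial-like cells led for 3 each, and macrophage-like cells for 1. These ranks are of pooled levels with no test, and the same share over all genes was not counted. Mmp16, Adamtsl5 and Timp3, counted among the 15, differed by less than 2-fold from smooth muscle-like cells in the tests below. Summed over the family, Mmp genes averaged 106 ± 21.0 CPM in endothelial-like, 986 ± 101 CPM in fibroblast-like cells and 192 ± 8.95 CPM in smooth muscle-like ones (mean ± SD of 3 animals). The Timp sum averaged 2067 ± 286 CPM, 3470 ± 192 CPM and 1480 ± 95.6 CPM in the same order of classes, and the Adamts sum 606 ± 40.2 CPM, 1091 ± 67.4 CPM and 410 ± 17.5 CPM. The Adamtsl sum was 21.4 ± 5.45 CPM, 265 ± 38.2 CPM and 74.1 ± 11.9 CPM. The 3 animals of the fibroblast-like class lay above those of both other classes for each of the 4 families.

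**Figure D1:**
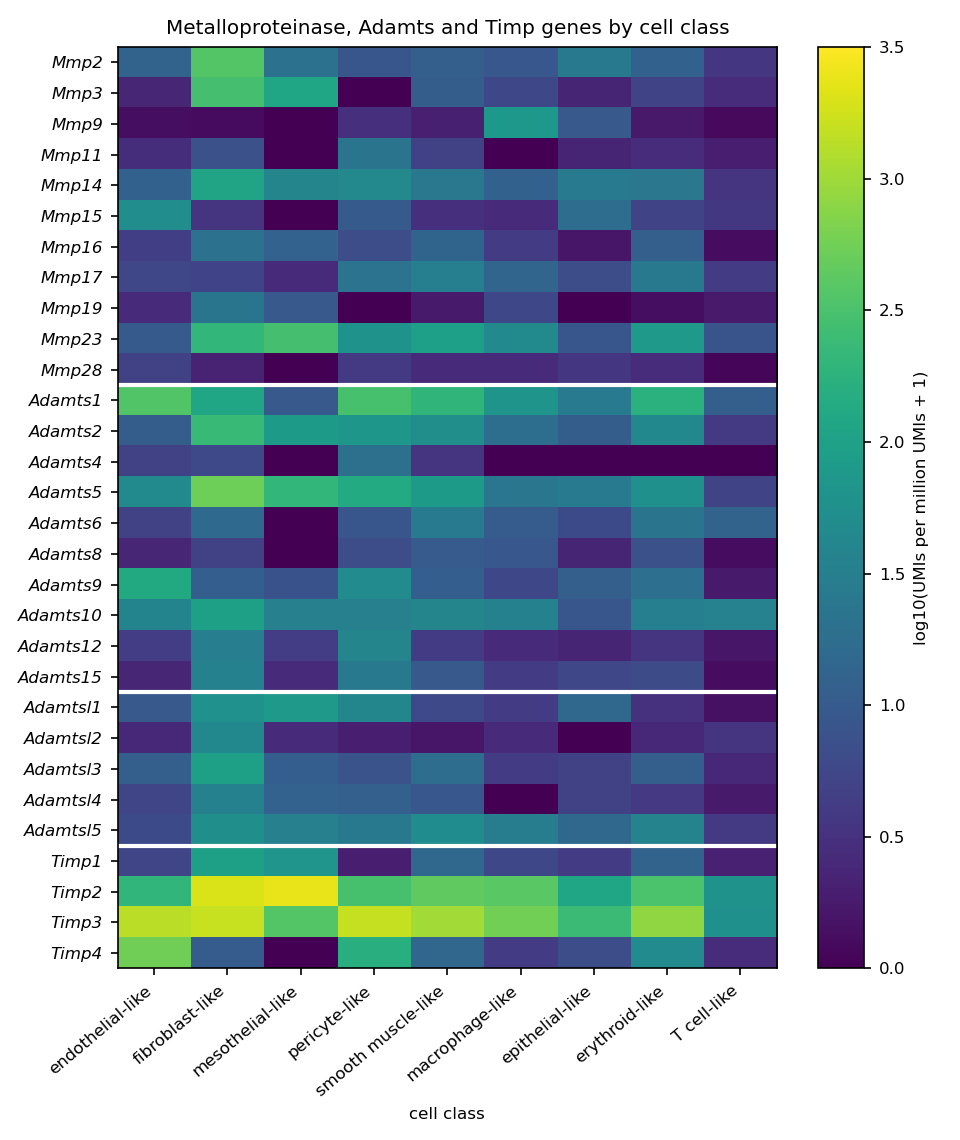
Level of the 30 members with at least 100 UMIs (rows) in 9 cell classes (columns), as the log10 of CPM plus 1 over all cells of the class in the pool. The fibroblast-like column is filled for many rows, whereas Timp4, Adamts9 and Mmp15 stand out in the endothelial-like column and Mmp9 in the macrophage-like column.

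Mmp2, a gelatinase that cuts denatured collagen and basement membrane collagen, was highest in fibroblast-like cells. It reached 355, 405 and 382 CPM in fibroblast-like cells of the animals of 81, 84 and 88 weeks, against 8.36, 12.4 and 13.0 CPM in their smooth muscle-like cells. All 3 fibroblast values lay far above all 3 smooth muscle values, with no overlap. The log2 ratio was 4.89 ± 0.16 (SE; adjusted p = 3.3e-19, edgeR quasi-likelihood test with Benjamini-Hochberg adjustment). Endothelial-like cells stood at 3.75, 6.88 and 18.6 CPM. At least 1 Mmp2 UMI was found in 80.9% of fibroblast-like cells and in 1.24% of T cell-like cells, the class taken as background. After each cell was thinned to 1000 UMIs these shares were 29.6% and 0.161%.

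Mmp3, a stromelysin that cuts proteoglycans and activates other proenzymes, was less evenly spread over the cells of the class. Fibroblast-like cells had 88.7, 250 and 258 CPM in the animals of 81, 84 and 88 weeks, against 2.99, 15.2 and 8.83 CPM in smooth muscle-like cells. The groups did not overlap, and the 81-week animal was the lowest in each. Mmp3 was higher in fibroblast-like cells by 4.27 ± 0.19 (log2, SE; adjusted p = 3.0e-16). In the pool, 311 of 1353 fibroblast-like cells (23.0%) had a UMI, against 0.860% of T cell-like cells, and thinned to 1000 UMIs the shares were 12.1% and 0.215%. The 5% of fibroblast-like cells with most Mmp3 held 67.6% of its UMIs and 1 cell alone had 208, whereas the same share of cells held 20.7% of the Mmp2 UMIs, with at most 24 in a cell. Among the named classes mesothelial-like cells came next, with 118 CPM (95% Poisson interval 91.8 to 149), from 4 of 51 cells.

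Mmp3 lies on chromosome 9 in a row of 9 members, between positions 7272514 and 7699585 (GRCm38.p6), with the collagenase and elastase genes Mmp13, Mmp8, Mmp1b and Mmp12. All 5 members without a single UMI in the pool, Mmp1b, Mmp7, Mmp8, Mmp10 and Mmp20, belong to this row. A count of 0 in the pool allows up to 0.0308 CPM (3 counts), and the interval covers counting error only. The other 3 expressed genes of the row were rare, each with most of its UMIs in 1 class. Mmp27 had 49 of its 53 UMIs in fibroblast-like cells. Mmp12, known as macrophage elastase, had 38 of 43 UMIs in macrophage-like cells, and the collagenase Mmp13 had 11 of 19 there.

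The sequences just before the start sites of Mmp3 and its neighbours Mmp10, Mmp12 and Mmp13 are shown because neighbours with similar motifs differed in which cells held their UMIs. RefSeq windows (GRCm38.p6) were matched for 35 of the 50 members. Not matched were Adamts4, Adamts5, Adamts6, Adamts7, Adamts8, Adamts10, Adamts15, Adamts16, Adamts19, Adamtsl1, Mmp2, Mmp9, Mmp16, Mmp17 and Mmp19. The 250 bases before each start were searched on both strands. The letters of the AP-1 motif were TGAGTCA. On the opposite strand the same motif reads as TGACTCA. The TATA box was searched as the letters TATAAA. Also searched were the GC box, with the letters GGGCGG, and the CCAAT box by its own name. None of the 4 is contained in another. Each line gives the last 100 bases before the start on the strand of the gene, with motifs in capitals. The windows are chr9:7445722-7445821 for Mmp3, chr9:7502242-7502341 for Mmp10, chr9:7347274-7347373 for Mmp12 (1 of its 2 windows) and chr9:7272414-7272513 for Mmp13, all on the plus strand. For contrast with these, Adamtsl2 (chr2:27079279-27079378, plus strand) and Adamts1 (chr16:85803114-85803213, minus strand) have a TATA box without AP-1. Timp4 (chr6:115252206-115252305, minus strand) has none of the motifs in the 100 bases shown. The Mmp12 window shown lies inside the annotated span of the gene, which starts at 7344397. Its other window, chr9:7344147-7344396, ends just before that position and holds none of the 4 motifs.
Mmp3: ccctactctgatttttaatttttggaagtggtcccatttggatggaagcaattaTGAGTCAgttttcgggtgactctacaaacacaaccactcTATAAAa
Mmp10: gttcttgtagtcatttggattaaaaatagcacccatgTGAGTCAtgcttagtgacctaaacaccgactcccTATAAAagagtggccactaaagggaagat
Mmp12: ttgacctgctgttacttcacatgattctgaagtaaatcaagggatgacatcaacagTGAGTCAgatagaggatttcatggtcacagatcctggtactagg
Mmp13: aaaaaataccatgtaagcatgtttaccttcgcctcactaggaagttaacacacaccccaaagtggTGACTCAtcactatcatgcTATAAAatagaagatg
Adamtsl2: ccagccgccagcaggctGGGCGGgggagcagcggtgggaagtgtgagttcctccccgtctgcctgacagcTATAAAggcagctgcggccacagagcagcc
Adamts1: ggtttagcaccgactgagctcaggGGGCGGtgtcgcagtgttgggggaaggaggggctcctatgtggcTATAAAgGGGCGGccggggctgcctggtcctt
Timp4: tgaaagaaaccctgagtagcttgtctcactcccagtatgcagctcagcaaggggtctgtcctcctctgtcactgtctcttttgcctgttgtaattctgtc
The AP-1 letters occurred in 6 of the 9 genes of the row, Mmp1b, Mmp3, Mmp7, Mmp10, Mmp12 and Mmp13, and in 0 of the other matched members. Mmp7 and Mmp12 each had them in 1 of 2 windows. Counted by window, they occurred in 6 of the 38 windows of the members and in 4.46% of all 32851 RefSeq windows of this length. The TATA box letters occurred in 9 of the 38 and in 12.4% of all windows, the GC box in 20 and 32.7%, and the CCAAT box in 8 and 33.8%. These windows came from 9, 20 and 7 members. Of the 6 genes with the AP-1 letters, Mmp3 was read in fibroblast-like cells, Mmp12 and Mmp13 mostly in macrophage-like cells, and Mmp1b, Mmp7 and Mmp10 in no cell. A match of letters is a description of the window and not a measured site.

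Mmp19, a secreted enzyme of connective tissue, averaged 28.8 ± 5.56 CPM in fibroblast-like against 0.509 ± 0.471 CPM in smooth muscle-like cells (mean ± SD of 3 animals), a log2 ratio of 5.44 ± 0.57 (SE; adjusted p = 8.4e-09). The span of Mmp19 overlaps that of Tmem198b, and the strand used in counting is not given in the sources used here, so reads of the 2 genes may not be told apart. Mmp9, the gelatinase of leukocytes, had its highest level in macrophage-like cells, at 71.7 CPM (95% Poisson interval 52.3 to 95.9), with 45 UMIs in 15 of 73 cells. The far more numerous smooth muscle-like cells held 59 Mmp9 UMIs, in 51 of 4676 cells, a level of 1.06 CPM (0.806 to 1.37). Macrophage-like cells held 60.5 CPM of Mmp12 and 17.5 CPM of Mmp13. Their cluster had the neutrophil genes S100a9 and S100a8 among its leading genes, so its Mmp levels were not split by cell type. In T cell-like cells Mmp9 stood at 0.218 CPM. Mmp11, a stromelysin by name, was highest in pericyte-like cells at 21.3 CPM (13.4 to 32.3), against 6.31 CPM in fibroblast-like cells. Mmp28, known as epilysin, was low throughout and highest in endothelial-like cells at 3.95 CPM (2.51 to 5.93). Its span overlaps 1700020L24Rik, and the limit given for Mmp19 holds for it.

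The membrane-bound enzymes were spread over different classes. Mmp14, which activates Mmp2 at the cell surface together with Timp2, had 180, 113 and 117 CPM in fibroblast-like cells of the animals of 81, 84 and 88 weeks. In the same animals the endothelial-like class had 6.00, 6.88 and 14.3 CPM, and the smooth muscle-like class 23.3, 25.2 and 22.8 CPM. The 3 classes did not overlap, and Mmp14 was higher in fibroblast-like than in smooth muscle-like cells by 2.29 ± 0.18 (log2, SE; adjusted p = 3.6e-11). It was lower in endothelial-like than in smooth muscle-like cells by a log2 change of -1.44 ± 0.28 (SE; adjusted p = 2.9e-04).

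Mmp15, the membrane-type relative with the opposite pattern, had 91.5, 40.3 and 44.6 CPM in endothelial-like cells of the animals of 81, 84 and 88 weeks, against 1.79, 0.476 and 0.930 CPM in smooth muscle-like cells. It was higher by 5.63 ± 0.30 (log2, SE; adjusted p = 1.2e-10), and the 81-week animal was the highest in both classes. Mmp17, a membrane-type enzyme held by a lipid anchor, was highest in smooth muscle-like cells. It averaged 5.10 ± 4.08 CPM in endothelial-like, 2.24 ± 0.389 CPM in fibroblast-like cells and 30.9 ± 6.10 CPM in smooth muscle-like ones (mean ± SD of 3 animals). Mmp17 was lower than in smooth muscle-like cells by log2 changes of -2.82 ± 0.34 in endothelial-like (SE; adjusted p = 2.8e-06) and -4.09 ± 0.45 in fibroblast-like cells (SE; adjusted p = 2.0e-08). Pericyte-like cells had 20.4 CPM of it in the pool.

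Mmp23, a small enzyme anchored by its N-terminus, had 188, 192 and 237 CPM in fibroblast-like cells, against 98.0, 89.9 and 94.4 CPM in smooth muscle-like cells of the animals of 81, 84 and 88 weeks. There was no overlap between the classes, yet the log2 difference of 0.96 ± 0.13 (SE; adjusted p = 7.3e-07) fell short of the 2-fold asked of a call. It passed in 6 of the alternatives, at 1.02 to 1.52, among them the fits without the 81-week or the 84-week animal. Mmp23 was lower in endothelial-like than in smooth muscle-like cells by a log2 change of -3.57 ± 0.22 (SE; adjusted p = 9.2e-10). The highest class was mesothelial-like at 291 CPM (95% Poisson interval 249.1 to 337.6). Its span overlaps Mib2, with the same limit on strand as for Mmp19. Mmp16 stood at 3.44 CPM in endothelial-like, 20.02 CPM in fibroblast-like cells and 12.6 CPM in smooth muscle-like ones of the pool. Over the animals, fibroblast-like and smooth muscle-like values overlapped, with a log2 difference of 0.11 ± 0.34 (SE; adjusted p = 0.83). Mmp16 was lower in endothelial-like than in smooth muscle-like cells by -2.29 ± 0.43 (log2, SE; adjusted p = 2.7e-04). Against fibroblast-like cells the change was -2.59 ± 0.54 (log2, SE; adjusted p = 0.00192). Mmp25, an enzyme best known from neutrophils, had 15 of its 21 UMIs in endothelial-like cells, at 2.58 CPM (1.44 to 4.25). Its level in macrophage-like cells, whose cluster also had neutrophil genes, was 4.78 CPM (0.986 to 14.0) from 3 UMIs, and the intervals overlap. The span of Mmp25 overlaps Bicdl2, with that limit on strand too.

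**Figure D2:**
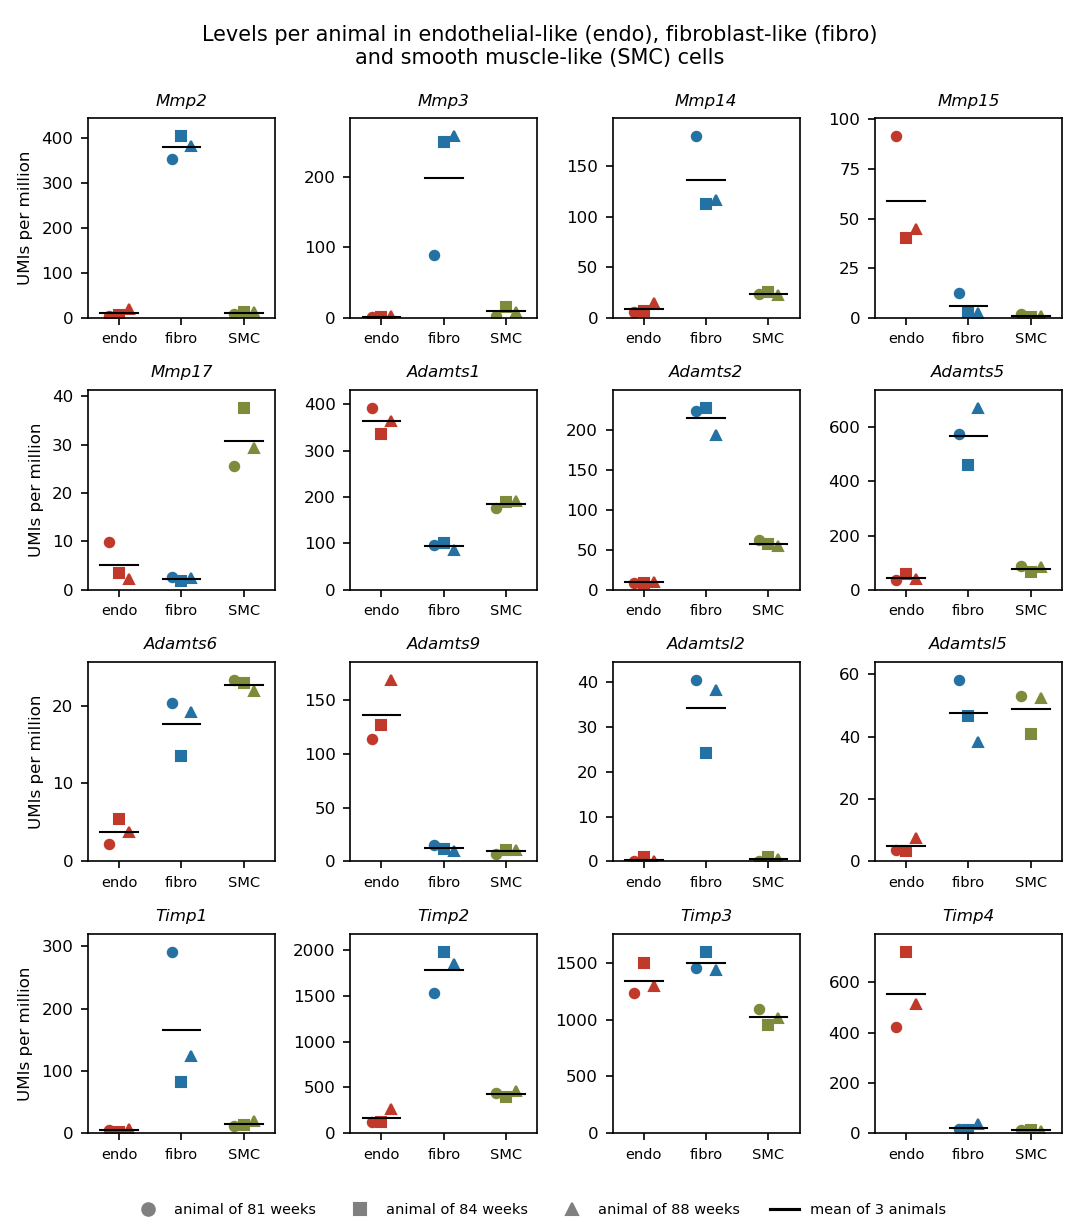
CPM of 16 members in endothelial-like, fibroblast-like and smooth muscle-like cells, with 1 symbol per animal (81, 84 and 88 weeks) and a line at the mean of the 3 animals, on linear axes that start at 0. Mmp2, Mmp3, Mmp14, Adamts2 and Adamts5 are highest in the fibroblast-like column and Timp4, Adamts9 and Mmp15 in the endothelial-like column, whereas the Timp3 columns lie close together.

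Among the Adamts enzymes that cut aggrecan and versican, neighbours in the genome had different cells. Adamts1 and Adamts5 lie next to each other on chromosome 16, from 85793827 to 85803113 and from 85858157 to 85901125 (GRCm38.p6). Adamts5, the main aggrecanase of mouse cartilage, had 575, 462 and 671 CPM in fibroblast-like cells of the animals of 81, 84 and 88 weeks, against 86.0, 63.8 and 82.7 CPM in smooth muscle-like cells. All fibroblast values lay above all smooth muscle values, and the log2 ratio was 2.71 ± 0.12 (SE; adjusted p = 1.2e-16). Endothelial-like cells, with 35.3, 56.5 and 38.2 CPM, lay below both.

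Adamts1 ran the other way. It had 391.6, 336 and 363 CPM in endothelial-like cells, 96.3, 99.9 and 86.0 CPM in fibroblast-like cells and 176, 190 and 191 CPM in smooth muscle-like cells of the animals of 81, 84 and 88 weeks. The 3 classes did not overlap. The endothelial-like level was higher than the fibroblast-like one by 1.93 ± 0.14 (log2, SE; adjusted p = 3.2e-07), and the difference from smooth muscle-like cells, 0.89 ± 0.10 (log2, SE; adjusted p = 1.9e-06), stayed under 2-fold. It was lower in fibroblast-like than in smooth muscle-like cells by a log2 change of -1.14 ± 0.14 (SE; adjusted p = 1.1e-07). That last call was lost at -0.79 with a stricter hashtag rule and at -0.99 without cells that held 2 T cell UMIs. Pericyte-like cells stood at 300 CPM in the pool.

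Adamts9, which cuts versican, was highest in endothelial-like cells. It had 113, 126 and 169 CPM in endothelial-like cells of the animals of 81, 84 and 88 weeks, against 7.17, 10.9 and 10.7 CPM in smooth muscle-like cells. It was higher by 3.73 ± 0.16 (log2, SE; adjusted p = 1.1e-11) with no overlap, and fibroblast-like cells, at 15.2, 11.7 and 9.56 CPM, were near the smooth muscle level. Pericyte-like cells had 47.5 CPM in the pool. Adamts15 and Adamts8, proteoglycan-cutting neighbours on chromosome 9, also differed. Adamts15 averaged 30.8 ± 9.50 CPM in fibroblast-like against 8.15 ± 4.44 CPM in smooth muscle-like cells (mean ± SD of 3 animals), higher by 1.88 ± 0.35 (log2, SE; adjusted p = 7.7e-05). Adamts8 averaged 0.905 ± 0.992 CPM in the endothelial-like class, against 9.59 ± 3.42 CPM in smooth muscle-like cells (mean ± SD of 3 animals), lower in endothelial-like cells by a log2 change of -3.30 ± 0.61 (SE; adjusted p = 2.1e-04). Adamts4, another aggrecanase, was highest in pericyte-like cells at 18.4 CPM (95% Poisson interval 11.1 to 28.8), with the same limit on strand as for Mmp19.

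The procollagen N-propeptidases, which trim fibrillar procollagens before assembly, were led by Adamts2. It had 223, 227 and 194 CPM in fibroblast-like cells of the animals of 81, 84 and 88 weeks, against 61.5, 56.6 and 54.4 CPM in smooth muscle-like cells. The groups did not overlap, and Adamts2 was higher by 1.74 ± 0.13 (log2, SE; adjusted p = 1.7e-11). Endothelial-like cells held 8.25, 8.85 and 10.1 CPM. Its relative Adamts3 had only 93 UMIs in the pool. By level it was highest in fibroblast-like cells at 2.10 CPM (95% Poisson interval 1.33 to 3.15), with 0.843 CPM in smooth muscle-like cells. Adamts10 and Adamts6, a pair known to act on fibrillin microfibrils, were less specific. Adamts10 averaged 100 ± 24.2 CPM in fibroblast-like cells and 30.6 ± 5.26 CPM in smooth muscle-like ones (mean ± SD of 3 animals), higher by 1.57 ± 0.18 (log2, SE; adjusted p = 5.0e-08). T cell-like cells had 34.2 CPM of Adamts10 in the pool. Adamts6 averaged 3.79 ± 1.58 CPM in endothelial-like, 17.6 ± 3.62 CPM in fibroblast-like cells and 22.7 ± 0.739 CPM in smooth muscle-like ones (mean ± SD of 3 animals). Only the endothelial-like differences were called for it. Adamts12, which cuts the matrix protein COMP, reached 37.8 CPM (26.9 to 51.7) in pericyte-like and 30.6 CPM (27.4 to 34.1) in fibroblast-like cells, intervals that overlap.

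Among the rarest Adamts genes, Adamts16 had 47 of its 50 UMIs in fibroblast-like cells and 46 in 1 cluster of them. Adamts19 had 39 of 53 in fibroblast-like cells. Adamts13, the plasma enzyme that cuts von Willebrand factor, had 11 of its 21 UMIs in T cell-like cells. The other 7 members below 100 UMIs had between 1 and 67 UMIs each.

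The Adamtsl genes were higher in fibroblast-like than in smooth muscle-like cells, with 1 exception. Adamtsl2, which binds fibrillin and latent TGF-beta binding protein, averaged 34.4 ± 8.78 CPM in fibroblast-like against 0.472 ± 0.476 CPM in smooth muscle-like cells (mean ± SD of 3 animals), higher by 5.64 ± 0.55 (log2, SE; adjusted p = 2.5e-09). Adamtsl3 averaged 108 ± 42.03 CPM against 13.4 ± 3.80 CPM, higher by 2.78 ± 0.22 (log2, SE; adjusted p = 5.8e-11). Adamtsl1 was higher by 3.33 ± 0.35 (log2, SE; adjusted p = 7.6e-09) and reached 77.3 CPM (95% Poisson interval 56.6 to 103) in mesothelial-like cells. Adamtsl4, a fibrillin-binding protein of the lens zonule, was higher in fibroblast-like cells by 1.77 ± 0.37 (log2, SE; adjusted p = 2.7e-04). The exception, Adamtsl5, averaged 47.8 ± 10.1 CPM in fibroblast-like cells and 48.9 ± 6.89 CPM in smooth muscle-like ones (mean ± SD of 3 animals), a log2 difference of -0.16 ± 0.20 (SE; adjusted p = 0.571). It was lower in endothelial-like than in smooth muscle-like cells by a log2 change of -3.35 ± 0.24 (SE; adjusted p = 5.3e-09).

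Of the 4 inhibitors, Timp4 was highest in endothelial-like cells, Timp2 in mesothelial-like cells, and Timp1 and Timp3 in fibroblast-like cells. Timp4, the inhibitor of restricted tissue range, had 424, 722 and 516 CPM in endothelial-like cells of the animals of 81, 84 and 88 weeks, against 11.4, 12.9 and 10.7 CPM in smooth muscle-like cells. The lowest endothelial value was far above the highest smooth muscle value, and the log2 ratio was 5.49 ± 0.15 (SE; adjusted p = 5.8e-14). At least 1 UMI was found in 71.5% of endothelial-like and 0.860% of T cell-like cells, and thinned to 1000 UMIs in 39.2% and 0.161%. Fibroblast-like cells had 15.2, 12.6 and 35.8 CPM. Pericyte-like cells had 155 CPM in the pool.

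Timp2, which both inhibits Mmp2 and helps Mmp14 to activate it, was higher in fibroblast-like than in smooth muscle-like cells. It had 1530, 1982 and 1847 CPM in fibroblast-like cells of the animals of 81, 84 and 88 weeks, against 441, 398 and 457 CPM in smooth muscle-like cells. It was higher by 1.88 ± 0.10 (log2, SE; adjusted p = 9.8e-15), with no overlap. Mesothelial-like cells held 2433 CPM (95% Poisson interval 2309 to 2562), and endothelial-like cells 119, 124 and 260 CPM in the 3 animals. Thinned to 1000 UMIs, 9.27% of endothelial-like, 78.3% of fibroblast-like and 33.0% of smooth muscle-like cells had a Timp2 UMI, against 6.398% of T cell-like cells.

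Timp1, the inhibitor induced in injured tissue, had 291, 81.9 and 124 CPM in fibroblast-like cells of the animals of 81, 84 and 88 weeks, against 11.9, 13.3 and 19.99 CPM in smooth muscle-like cells. The animals of the classes did not overlap, although the 81-week value was over 2-fold above both other fibroblast values and came from 43 cells. Timp1 was higher by 3.12 ± 0.25 (log2, SE; adjusted p = 4.0e-11). The 5% of fibroblast-like cells with most Timp1 held 46.3% of its UMIs.

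Timp3, the inhibitor that binds to the matrix and also acts on Adam17 and on aggrecanases, was present in all wall classes. It had 1230, 1501 and 1292 CPM in endothelial-like cells, 1457, 1598 and 1433 CPM in fibroblast-like cells and 1097, 951 and 1016 CPM in smooth muscle-like cells of the animals of 81, 84 and 88 weeks. The endothelial-like and fibroblast-like values overlapped, with a log2 difference of -0.15 ± 0.10 (SE; adjusted p = 0.288). Both classes lay above smooth muscle-like cells in every animal, by 0.31 ± 0.10 (log2, SE; adjusted p = 0.0178) and 0.39 ± 0.09 (log2, SE; adjusted p = 9.4e-04), under the 2-fold of a call. In the pool, pericyte-like cells reached 1544 CPM, mesothelial-like cells 363 CPM and T cell-like cells 55.8 CPM. The spans of Timp1, Timp3 and Timp4 overlap those of the synapsin genes Syn1, Syn3 and Syn2, and that of Timp2 overlaps Cep295nl, so with the strand of counting not given their reads carry the same limit as Mmp19.

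Counted over all tested members, fibroblast-like cells had the higher level in most. Of 24 members tested against smooth muscle-like cells, 15 were higher and 2 lower, called at an adjusted p under 0.05 with at least a 2-fold change. Of all 9536 genes tested, 12.9% were called higher and 10.6% lower. The median log2 ratio was 1.82 over the members and -0.003 over all genes. The 3 animals of each class did not overlap for 20 of the 24, against 50.7% of all genes. The 2 lower members were Mmp17 and Adamts1. Beside these counts, the summed level of the 10 T cell markers ran from 144 to 1107 CPM over the fibroblast-like sums and from 69.3 to 114 CPM over the smooth muscle-like ones, all 10 markers being detected in both. Without cells that held a T cell UMI, 12 of 17 members tested were higher and 2 lower, with 702 and 675 of 5998 genes. With a hashtag rule of 2 times the cutoff, which left 12 members and 2945 genes to test, 9 members were higher and 0 lower, and 385 genes higher and 384 lower.

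Against smooth muscle-like cells, 3 of 20 members were higher in endothelial-like cells and 10 were lower, where 16.7% and 15.8% of 10358 genes were called. The 3 were Mmp15, Timp4 and Adamts9. The members' median log2 ratio was -1.17, against 0.014 over all genes, and 16 of the 20 did not overlap, against 63.9% of genes. Against fibroblast-like cells, 4 of 24 members were higher in endothelial-like cells and 19 lower, where 12.9% and 14.6% of 9453 genes were called. Adamts1 joined the other three, the median was -3.38 against 0.008 over all genes, and 23 of the 24 did not overlap, against 51.8% of genes. The largest fall was that of Mmp3, by a log2 change of -7.01 ± 0.27 (SE; adjusted p = 1.5e-09). The 3 comparisons share their sums pairwise, so their counts are not independent of each other. The 15 genes of a dissociation stress list summed to between 3125 and 3597 CPM in endothelial-like, 1560 and 1760 CPM in fibroblast-like and 2112 and 2312 CPM in smooth muscle-like sums, and its part in the member levels was not tested.

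**Figure D3:**
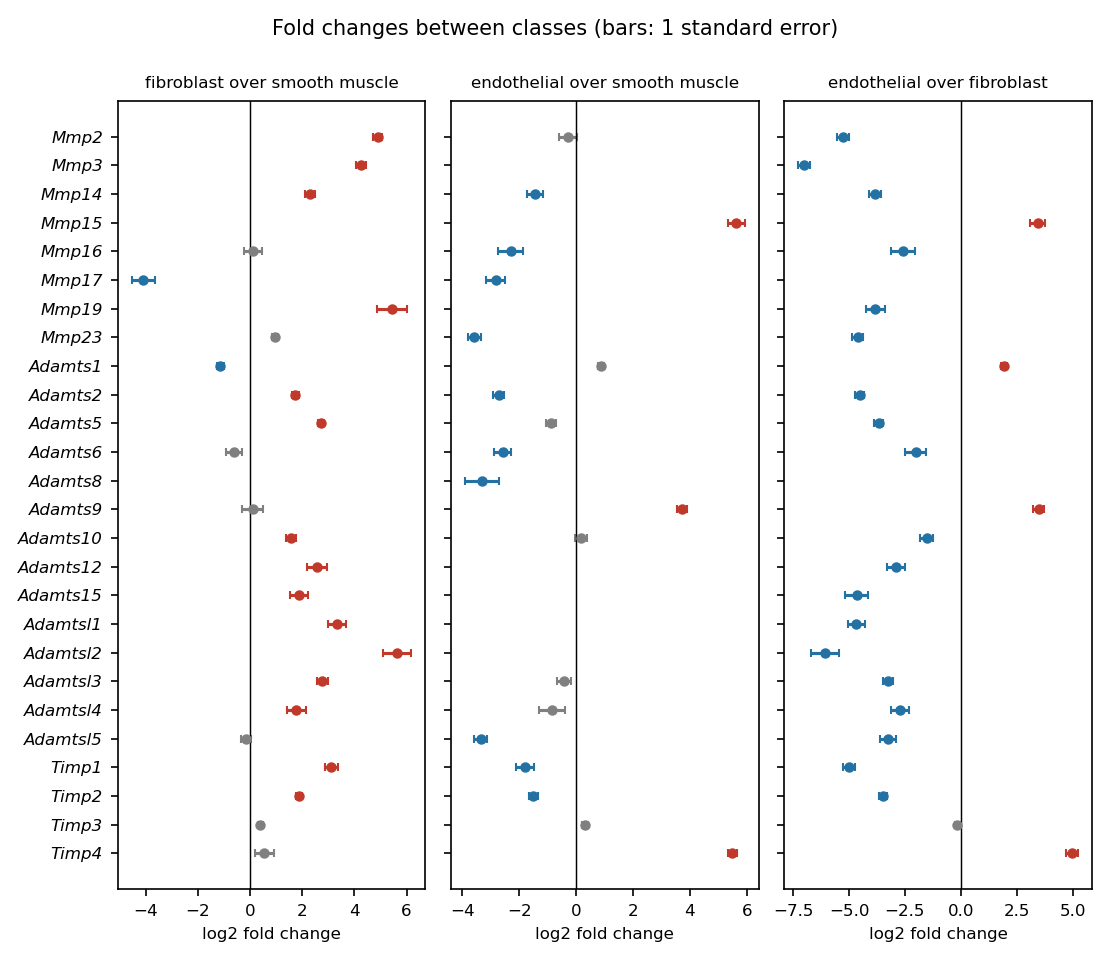
Log2 fold change with 1 SE of each tested member in the 3 class comparisons, with members higher in red, lower in blue and not called in grey. The fibroblast-like over smooth muscle-like panel lies mostly to the right of 0, and the endothelial-like over fibroblast-like panel lies to the left of 0 except for Timp4, Adamts9, Mmp15 and Adamts1.

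The endothelial-like class was itself divided. It held 3 clusters, named from marker genes as large vessel (127 cells), arterial (139 cells) and capillary (759 cells). The names follow the marker lists with most genes among the 10 leading genes of a cluster. At Leiden resolution 0.8 no arterial cluster was named. With doublets kept, the arterial cluster stood further above the mean of all clusters in capillary markers (log2 5.03) than in arterial ones (3.81). Timp4 had 41.0, 28.3 and 25.3 CPM in large vessel cells of the animals of 81, 84 and 88 weeks, against 558, 946 and 789 CPM in capillary cells. The groups did not overlap, and Timp4 was lower in large vessel cells by a log2 change of -4.69 ± 0.26 (SE; adjusted p = 1.9e-09). Adamts9 had 13.7, 3.15 and 5.42 CPM in large vessel cells, from 3, 1 and 3 UMIs, against 138, 143 and 256 CPM in capillary cells. It was lower by a log2 change of -4.90 ± 0.37 (SE; adjusted p = 4.9e-08), and Mmp15 by -4.21 ± 0.47 (SE; adjusted p = 3.9e-06), with 0, 1 and 3 UMIs in the large vessel sums. Arterial cells, which were not tested, had 379 CPM of Timp4, 141 CPM of Adamts9 and 42.7 CPM of Mmp15 in the pool.

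Timp2 ran the other way within the endothelium. It had 456, 594 and 807 CPM in large vessel cells of the animals of 81, 84 and 88 weeks, against 53.7, 39.4 and 32.9 CPM in capillary cells. All 3 large vessel values lay above all capillary values, with a log2 ratio of 3.87 ± 0.24 (SE; adjusted p = 7.3e-09). Mmp2 averaged 34.3 ± 22.2 CPM in large vessel and 2.34 ± 0.297 CPM in capillary cells (mean ± SD of 3 animals), higher by 3.81 ± 0.46 (log2, SE; adjusted p = 8.9e-06). Mmp14 was higher by 2.90 ± 0.51 (log2, SE; adjusted p = 3.0e-04) and Adamts10 by 1.84 ± 0.34 (log2, SE; adjusted p = 4.9e-04). Timp2, Mmp2 and Mmp14, the parts of the known Mmp2 activation complex, were thus among the 4 higher members. Over the large vessel sums Mmp2 ran from 13.7 to 57.8 CPM and Mmp14 from 18.2 to 36.1 CPM. The lowest of these values rest on few UMIs, as 13.7 CPM of Adamts9 came from 3. Adamts1 had 155, 160 and 108 CPM in large vessel and 333, 288 and 400 CPM in capillary cells, lower by a log2 change of -1.31 ± 0.21 (SE; adjusted p = 1.4e-04). Without the 88-week animal its change was -0.97, under the 2-fold of a call. It was highest in arterial cells, with 1049, 661 and 841 CPM. Timp3 differed by -0.45 ± 0.14 (log2, SE; adjusted p = 0.0232), under 2-fold.

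In all, 4 of 11 tested members were higher in large vessel than in capillary cells and 4 lower, where 13.3% and 10.5% of 7690 genes were called, and 10 of the 11 did not overlap, against 46.9% of genes. Without the 81-week animal 9 of 16 members tested were higher, with 1199 of 8266 genes, and without cells that held a T cell UMI 2 of 8 were, with 694 of 5635 genes. Markers of other classes moved with this comparison. The 10 smooth muscle markers summed to between 8359 and 12470 CPM in large vessel sums and between 1596 and 2237 CPM in capillary sums. The 10 fibroblast markers summed to between 1344 and 2208 CPM in large vessel sums and between 283 and 415 CPM in capillary sums, and all 10 of each list were detected. The part of such RNA in the higher levels of Timp2, Mmp2, Mmp14 and Adamts10 was not tested. Of the 4 genes lower in large vessel cells, Timp4, Adamts9 and Mmp15 averaged 11.6, 9.6 and 1.07 CPM in smooth muscle-like cells, and Adamts1 185.5 CPM (means of 3 animals). The 15 genes of the dissociation stress list summed to between 1807 and 2585 CPM in large vessel sums and between 3211 and 3803 CPM in capillary sums.

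**Figure D4:**
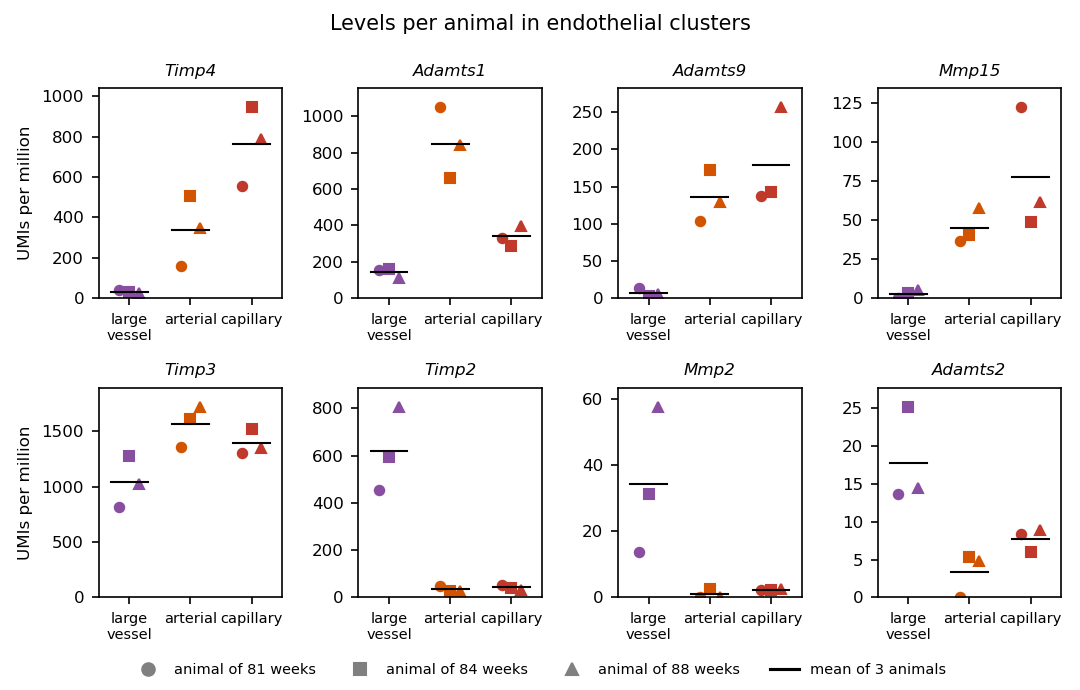
CPM of 8 members in large vessel, arterial and capillary endothelial-like cells, with 1 symbol per animal (81, 84 and 88 weeks) and a line at the mean of the 3 animals, on linear axes that start at 0. Timp4, Adamts9 and Mmp15 are near 0 in large vessel cells, whereas Timp2 and Mmp2 are higher there than in both other clusters.

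Fibroblast-like cells fell into a Pi16 Clec3b group of 889 cells, in 2 clusters, and a Dio2 Fmod group of 464 cells. Adamts5 had 729, 570 and 820 CPM in Pi16 Clec3b cells of the animals of 81, 84 and 88 weeks, against 187, 236 and 340 CPM in Dio2 Fmod cells. All Pi16 Clec3b values lay above all Dio2 Fmod values, and Adamts5 was higher by 1.43 ± 0.21 (log2, SE; adjusted p = 6.7e-06). Timp3 had 980, 1221 and 1131 CPM in Pi16 Clec3b cells, against 2660, 2387 and 2108 CPM in Dio2 Fmod cells. It was lower by a log2 change of -1.12 ± 0.18 (SE; adjusted p = 4.5e-05), with no overlap. Without the 81-week animal the Timp3 change was -0.94, under 2-fold. Adamtsl2, with 24.8, 17.3 and 24.2 CPM against 80.3, 38.9 and 69.5 CPM, was lower by a log2 change of -1.42 ± 0.43 (SE; adjusted p = 0.0313), on sums of 7 to 14 UMIs, and this call was lost without any 1 of the 3 animals. Of 16 members tested, 1 was higher and 2 were lower, where 4.01% and 3.56% of 4465 genes were called, and 6 of the 16 did not overlap, against 23.8% of genes. Without the 84-week animal 2 of 14 were higher, with 115 of 3478 genes, and without the 88-week animal 2 of 16, with 178 of 4994. Without the 81-week animal 0 of 18 were lower, with 146 of 5111 genes. The 10 smooth muscle markers summed to between 1277 and 2722 CPM in Pi16 Clec3b sums and between 2503 and 7543 CPM in Dio2 Fmod sums, and their part in these differences was not tested.

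Within the Pi16 Clec3b group, the cluster with most Pi16 (244 cells, with 10, 22 and 7 hashtagged cells of the 3 animals) stood apart from the other (645 cells), and these levels are a description with no test. Adamts5 was 1259 CPM in the Pi16 cluster (95% Poisson interval 1213 to 1306), 407 CPM in the other cluster of the group and 260 CPM in Dio2 Fmod cells. Timp2 was 3436 CPM in the Pi16 cluster, against 1567 and 1621 CPM in the other 2. Adamts16 reached 20.03 CPM (14.7 to 26.7) from 12.7% of the Pi16 cluster's cells and stood at 0 and 0.272 CPM in the other 2. Adamtsl3 and Adamtsl4 were highest there too, with 210 and 77.1 CPM. Mmp3, by contrast, had 36.1 CPM (28.8 to 44.8) in the Pi16 cluster, against 348 and 373 CPM in the others, and Adamtsl2 had 0.871 CPM, against 41.7 and 67.7 CPM. Mmp2, with 356, 402 and 322 CPM, differed by less than 1.5 times over the 3 clusters. The 39 Adamts19 UMIs of fibroblast-like cells fell mostly in the second Pi16 Clec3b cluster, with 35 of them.

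**Figure D5:**
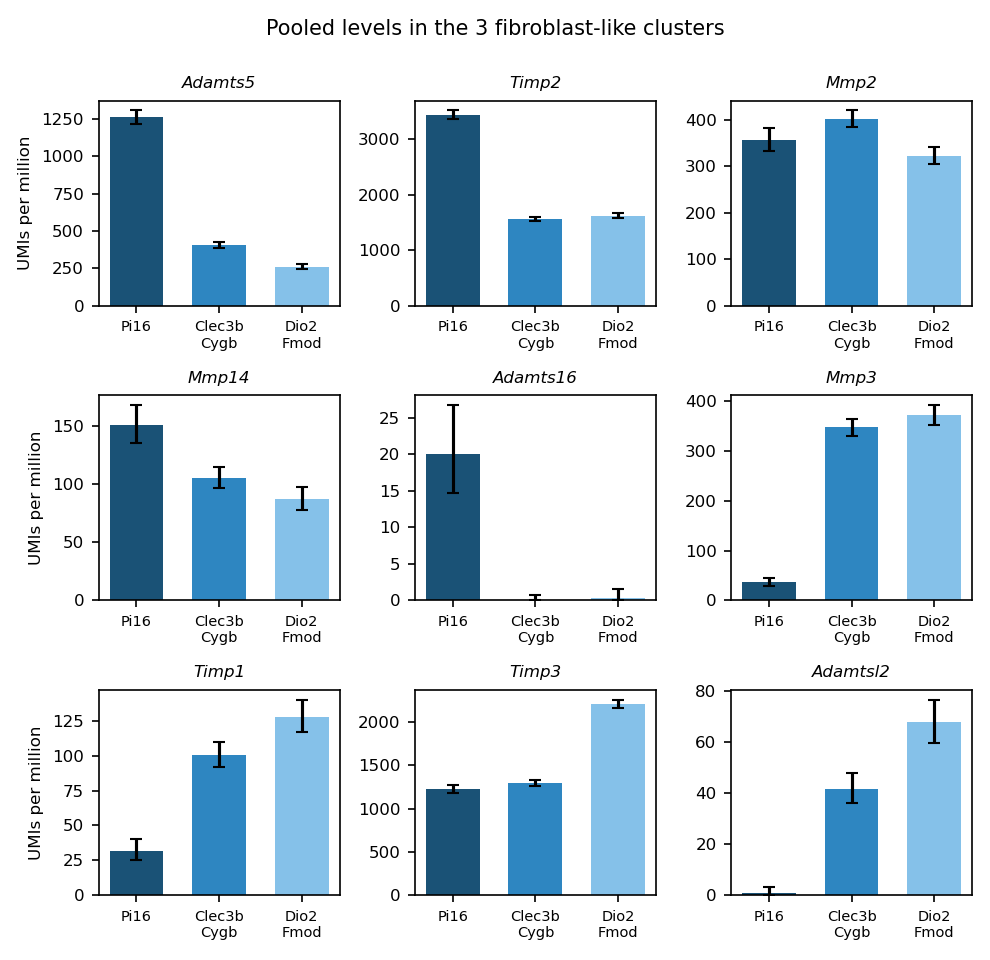
CPM of 9 members in the 3 fibroblast-like clusters of the pool (Pi16 and Clec3b Cygb label the 2 clusters of the Pi16 Clec3b group), as bars from 0 with 95% Poisson intervals that cover counting error only. Adamts5, Timp2 and Adamts16 are highest in the Pi16 cluster, where Mmp3, Timp1 and Adamtsl2 are lowest.

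Few members differed among smooth muscle-like cells, which fell into a Tnnt2 Actc1 Des group of 1307 cells and a Mylk4 Npnt group of 3369 cells. Of 17 members tested, 1 was higher and 1 lower in Tnnt2 Actc1 Des cells, where 0.976% and 0.989% of 7886 genes were called, and 7 of the 17 did not overlap, against 21.2% of genes. Adamts5 had 140, 116 and 139 CPM in Tnnt2 Actc1 Des cells of the animals of 81, 84 and 88 weeks, against 72.1, 41.9 and 64.6 CPM in Mylk4 Npnt cells. All Tnnt2 Actc1 Des values lay above all Mylk4 Npnt values, and the log2 ratio was 1.17 ± 0.16 (SE; adjusted p = 1.8e-11). It was 0.99 without cells that held a T cell UMI and 0.96 with cells of 1 hashtag clustered alone, both just under 2-fold. Mmp17 had 8.75, 20.9 and 19.0 CPM in Tnnt2 Actc1 Des cells, from 3, 13 and 10 UMIs, against 30.1, 44.6 and 32.6 CPM in Mylk4 Npnt cells. It was lower by a log2 change of -1.08 ± 0.30 (SE; adjusted p = 0.00721), a call lost without the 81-week animal, at -0.95, and without the 84-week animal, at -1.09 (adjusted p = 0.181). Timp2 differed by less than 2-fold, with 313 ± 20.2 CPM in Tnnt2 Actc1 Des and 471 ± 28.0 CPM in Mylk4 Npnt cells (mean ± SD of 3 animals; log2 change of -0.59 ± 0.10, adjusted p = 1.3e-07). The 10 fibroblast markers summed to between 1683 and 2341 CPM in Tnnt2 Actc1 Des sums and between 2069 and 2149 CPM in Mylk4 Npnt sums, so the groups overlap, although Dcn among them was called higher in Tnnt2 Actc1 Des cells. The 8 pericyte markers summed to between 364 and 592 CPM in Tnnt2 Actc1 Des sums and between 722 and 756 CPM in Mylk4 Npnt sums. The part of such RNA in the differences of Adamts5 and Mmp17 was not tested.

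Other genes of the same system were counted from lists. The 35 partners of these enzymes included activators, serpins, Adam proteases and cell-surface receptors. Of 27 tested, 14 were higher and 2 lower in fibroblast-like than in smooth muscle-like cells, with a median log2 ratio of 1.02. Over all genes, 12.9% were called higher and 10.6% lower there. Pcolce, the enhancer of procollagen C-propeptide cleavage, was higher by 5.36 ± 0.16 (log2, SE; adjusted p = 3.7e-20). Serpine2, a serine protease inhibitor, was among the lower ones, with a log2 change of -2.57 ± 0.12 (SE; adjusted p = 4.2e-16). In endothelial-like against smooth muscle-like cells, 3 of 25 partners (12%) were higher and 11 lower, with a median of -0.79. Over all genes, 16.7% were called higher and 15.8% lower, so the higher share of the partners was not above that of genes. The 3 higher partners were membrane proteases of the Adam family, Adam10 by 2.17, Adam17 by 1.83 and Adam15 by 1.73 on the log2 scale. Against fibroblast-like cells, 3 of 28 partners (10.7%) were higher in endothelial-like cells and 20 lower, with a median of -1.86. There 12.9% and 14.6% of all genes were called.

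Within the classes, 11 of 21 partners were higher in large vessel than in capillary cells, led by Htra1, Pcolce2 and Pcsk5. Over all genes, 13.3% were called higher there and 10.5% lower. None of the 21 was called lower by edgeR, with 3 lower at an unadjusted p under 0.05. In Pi16 Clec3b against Dio2 Fmod cells, 3 of 23 partners were higher and 2 lower, where 4.01% and 3.56% of all genes were called. Pcsk6, a proprotein convertase, was higher by 2.68 ± 0.28 (log2, SE; adjusted p = 2.7e-08), and Cst3, an inhibitor of cysteine proteases, was lower by a log2 change of -1.93 ± 0.18 (SE; adjusted p = 3.4e-09). In Tnnt2 Actc1 Des against Mylk4 Npnt cells, the only calls among 23 partners were 2 lower ones, Pcsk5 among them. Over all genes, 0.976% were called higher there and 0.989% lower. No partner was called higher by edgeR there, and 1 was at an unadjusted p under 0.05.

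Of 16 substrate genes, 7 of 14 tested were higher and 3 lower in fibroblast-like than in smooth muscle-like cells. Over all genes, 12.9% were called higher and 10.6% lower. Fbn1, which codes for fibrillin, was higher by 2.04 ± 0.11 (log2, SE; adjusted p = 1.1e-14). The aggrecan gene Acan was lower by a log2 change of -4.37 ± 0.61 (SE; adjusted p = 1.1e-06). The elastin gene Eln, with 603 ± 14.8 CPM in fibroblast-like cells and 1238 ± 53.8 CPM in smooth muscle-like ones (mean ± SD of 3 animals), was lower by -1.20 ± 0.09 (log2, SE; adjusted p = 2.1e-11). Dcn, Vwf, Col1a1, Col1a2 and Eln, also on this list, were among the markers that named classes or their groups. Acan and Comp were on the marker list of chondrocytes or tendon. These genes were not taken out of the substrate counts. In endothelial-like cells, 3 of 15 substrates were higher and 10 lower than in smooth muscle-like cells, where 16.7% and 15.8% of all genes were called. Against fibroblast-like cells 3 of 14 were higher and 10 lower, where 12.9% and 14.6% of all genes were called. In large vessel against capillary cells, 13.3% of all genes were called higher and 10.5% lower. Of the substrates, 11 of 13 were higher and 2 lower, the lower ones being the basement membrane collagen genes Col4a1 and Col4a2. Among the higher ones was the fibroblast marker Dcn, with 855 ± 386 CPM in large vessel and 68.2 ± 36.2 CPM in capillary cells (mean ± SD of 3 animals). The smooth muscle and fibroblast markers given above were higher in the same sums, and their part in this count was not tested. In Pi16 Clec3b against Dio2 Fmod cells, 4.01% of all genes were called higher and 3.56% lower. There 3 of 12 substrates were higher, among them the fibronectin gene Fn1 by 2.20 ± 0.30 (log2, SE; adjusted p = 3.0e-06). Another 3 were lower, among them Comp, a substrate of Adamts12, by a log2 change of -2.13 ± 0.38 (SE; adjusted p = 1.4e-04). In Tnnt2 Actc1 Des against Mylk4 Npnt cells, 0.976% of all genes were called higher and 0.989% lower. Among 13 substrates 1 was higher and 2 were lower, Acan and Fn1. The higher one was Dcn, by 2.76 ± 0.16 (log2, SE; adjusted p = 6.1e-66).

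Genes of the dissociation stress list were called in several of these comparisons. Of its 15 genes, 4 were higher and 5 lower in fibroblast-like than in smooth muscle-like cells, where 12.9% and 10.6% of all genes were called. In endothelial-like against smooth muscle-like cells 5 were higher and 2 lower, where 16.7% and 15.8% of all genes were called. Against fibroblast-like cells 7 were higher in endothelial-like cells, where 12.9% of all genes were. In large vessel against capillary cells, 13.3% of all genes were called higher and 10.5% lower. Of the list, 2 of 14 were higher and 5 lower, led by the heat shock gene Hspa1a at a log2 change of -2.90 ± 0.29 (SE; adjusted p = 1.4e-06). In Pi16 Clec3b against Dio2 Fmod cells, 2 of 7 were higher, the immediate early genes Jun and Ier2, where 4.01% of all genes were. Between the smooth muscle groups edgeR called none of 14, with 2 higher and 2 lower at an unadjusted p under 0.05. It called 0.976% of all genes higher there and 0.989% lower.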

How the data were processed

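Per the file headers, the deposited matrix holds raw UMI counts per gene and barcode from Cell Ranger 6.0.1, and the submitters' processing notes name Cell Ranger, Seurat 4.0.5 and mm10. The authors' counts were used without change. No cell annotation was used here. Barcodes with at least 500 genes, at least 1000 UMIs and under 15% mitochondrial UMIs were kept. Hashtags were called with HTODemux (Seurat 5.3.0, quantile 0.99), and a deposited reference table ties each hashtag to an age. Scrublet (scanpy 1.11.5) called 360 of 11301 cells (3.19%) doublets, which were removed. Cells were clustered by Leiden at resolution 1.5, leaving the members, their partners, substrates and stress genes out, except marker genes. Genes that vary with the members could still shape the clusters.

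Counts of cells with exactly 1 hashtag were summed per animal and class (at least 10 cells) and tested with edgeR 4.0.16 (TMM, quasi-likelihood F test, filterByExpr, Benjamini-Hochberg over all genes tested) with the animal as a block, because both classes come from the same 3 animals. n counts animals. Alternatives included DESeq2 1.42.0, no filter, other cell filters and clusterings, and each animal left out. The script was tested on simulated data. Intervals and the floor of 3 counts cover counting error only. Members with at least 100 UMIs were described, and rarer ones named where 1 class or cluster held at least 10 of their UMIs and most of them. Of each list, up to 3 genes past the threshold in either direction were named by size of change; a result that this rule would name is not reported here. The members and lists were chosen with earlier results of these data known.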

Additional observations from a re-analysis of the deposited data

How the results depend on the processing

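Over 15 alternatives, 73 results for single members, all the called ones and some uncalled ones, gave 1035 values. A member not tested or without an adjusted p in an alternative gave no value and was not counted as lost. Of the values, 1010 kept their direction and their side of the threshold, 17 lost the call, 8 gained it and 0 changed sign. The losses were 7 of 41 values for the smooth muscle groups and 7 of 29 for the fibroblast groups. The others were 2 of 274 for fibroblast-like over smooth muscle-like and 1 of 127 for large vessel over capillary cells. Replicates 1, 2 and 3 are the animals of 81, 84 and 88 weeks. With no replicate block, the members called were the same in number in every comparison except large vessel over capillary cells. There 5 rather than 4 of 11 were higher (1021 of 7690 genes). Fibroblast-like over smooth muscle-like counts moved to 9 higher and 0 lower of 12 members tested with a hashtag of at least 2 times the cutoff (385 higher and 384 lower of 2945 genes), against 15 and 2 of 24. They moved to 1 lower of 23 without cells with 2 T cell UMIs (840 of 8106 genes), chosen after seeing the data. Large vessel over capillary counts moved from 4 higher and 4 lower of 11 to 10 higher of 37 with no filter on low counts (1300 of 16058 genes), 2 of 8 without cells with a T cell UMI (694 of 5635), 2 of 8 with clustering of cells with 1 hashtag (706 of 5327), 8 of 14 at Leiden resolution 0.8 (1058 of 8038), chosen after seeing the data, and 7 lower of 15 with doublets kept (806 of 8309). Over the animals left out, 4 of 10 to 9 of 16 were higher (928 of 7245 and 1199 of 8266 genes). The number tested thus moved with these counts. Of the smooth muscle groups, 0 were higher and 0 lower of 11 without cells with a T cell UMI (27 and 39 of 5393 genes). With clustering of cells with 1 hashtag, 0 were higher and 2 lower of 20 (87 and 86 of 9041). At resolution 0.8, 2 were higher and 2 lower of 18 (80 and 88 of 7878). DESeq2, which gave Mmp17 no adjusted p, called 0 of 17 lower (22 of 7886), and with doublets kept 0 of 14 were lower (45 of 7599). Leaving out 1 animal gave 0 of 17 to 1 of 19 lower (52 of 7936 and 93 of 8201). Of the fibroblast groups, 2 were higher and 1 lower of 38 with no filter (254 and 174 of 15548 genes). At resolution 0.8, 3 were higher and 1 lower of 13 (145 and 105 of 3461), and with DESeq2 1 of 16 was lower (78 of 4465). Leaving out 1 animal gave from 1 higher and 0 lower of 18 (181 and 146 of 5111) to 2 higher and 1 lower of 14 (115 and 115 of 3478). The cause of these moves was not tested.

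Among all genes, DESeq2 called 16 higher and 22 lower between smooth muscle groups, against 77 and 78 with edgeR, and 85 and 78 between fibroblast groups, against 179 and 159. Without cells with a T cell UMI, 702 genes rather than 1231 were higher in fibroblast-like than in smooth muscle-like cells, 861 rather than 1378 lower in endothelial-like than in fibroblast-like cells, and 27 and 39 called between smooth muscle groups. With the stricter hashtag rule, 893 were lower in endothelial-like than in fibroblast-like cells. With doublets kept, 45 were lower between smooth muscle groups. Without the 84-week animal 115 were higher, and at resolution 0.8 105 were lower, between fibroblast groups. Pooled levels of 30 members moved by more than their spread for 5 with under 10% mitochondrial UMIs, 0 with at least 2000 UMIs and 15 with only cells of 1 hashtag, where 3 rather than 5 members were highest in endothelial-like cells. Means over the animals moved 14 of 24 levels. Not run, for lack of cells in every animal, were the stricter hashtag rule for both smooth muscle and fibroblast groups, and for the fibroblast groups also under 10% mitochondrial UMIs, without T cell UMIs and the clustering of cells with 1 hashtag.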

Other observations

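Clusters that no marker list named also held members. A cluster of 98 cells led by Prg4, Comp and Col2a1 had 352 CPM of Mmp2 (95% Poisson interval 314 to 393), 178 CPM of Mmp3 (151 to 208) and 1790 CPM of Timp3 (1702 to 1880). Its Adamts9 level, 46.5 CPM (33.4 to 63.1), lay between those of endothelial-like cells at 133 CPM and fibroblast-like cells at 10.2 CPM. A cluster of 25 cells, 24 of them without a hashtag, had 1275 CPM of Timp1 (1175 to 1382), where 1 cell held 332 of the 598 UMIs. The 18 Schwann-like cells, too few to be ranked with the classes, had 103 CPM of Mmp15 (49.3 to 189) from 10 UMIs, beside 51.2 CPM (45.6 to 57.4) in endothelial-like cells. These are levels of 1 pool and were not tested.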
